A study of Mus musculus with 2 samples.

Results

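TRBV31 is the one V gene of the mouse T cell receptor β (TCRβ) locus that lies downstream of the D, J and constant genes and is read in the opposite direction. In the annotation of build GRCm38 (GENCODE vM21) the gene Trbv31 (ENSMUSG00000076499.3) was placed at chr6:41557691-41558452 on the minus strand. Its transcripts Trbv31-201 and Trbv31-202 each had 2 exons, and the second exon, chr6:41557693-41557984 in Trbv31-202, ended in the bases that enter the CDR3. The CDR3 is the stretch of the receptor that spans the V, D and J joints and contacts antigen. TRBV31 clonotypes were taken as those whose first-listed V gene was TRBV31, a clonotype being a distinct CDR3 nucleotide sequence with its genes as assembled from the reads. There were 84 among the 1640 TRBV clonotypes of the thymus and 158 among the 2241 of the spleen, 242 in all, of 7732 and 11826 clonotypes over both receptor chains. Because 16 were found in both tissues, the 242 stood for 226 distinct clonotypes.

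The cells were induced T (iT) cells from mouse embryonic stem cells of C57BL/6 background (iR9-ESC) that carry doxycycline-inducible Runx1 and Hoxa9 in the Rosa26 locus. The factors were induced in culture, and the resulting hematopoietic progenitors were transplanted into irradiated 8-week-old B-NDG mice, which are immunodeficient. The study's methods give the age of these recipients as a range that starts at 8 weeks. The study describes transplantation without doxycycline, but a supplementary legend describes recipients that were fed it. Which of these held for the sequenced mice is not stated there. At week 6, 15000 CD4 and CD8 single-positive iT cells of either tissue were collected by sorting, and their TCRα and TCRβ transcripts were sequenced as 1 library per tissue. In the study's methods thymus cells were gated on CD45.2 and against other lineages and TCRγδ, and spleen cells on CD45.2 and CD62L+CD44-. Elsewhere the study calls the cells of both tissues naïve, so that it is unclear whether the gates differed, and if they did, the tissue and the gate cannot be told apart. Whether the mice behind each library were the same is not given in the sources used here. With 1 library per tissue no test between tissues was possible, and intervals cover counting error only.

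A TCRβ gene is assembled in developing thymocytes by the RAG recombinase, which first joins a D to a J gene and then a V gene to that DJ. V genes upstream of the D genes join by deletion of the intervening DNA, whereas TRBV31 joins by inversion, so that the DNA between it and the DJ joint is turned around and kept in the chromosome. Enzymes trim the opened ends and terminal transferase adds bases without a template, so that many joints are out of frame. A cell with one out-of-frame allele can still mature if its other allele encodes a receptor chain, and transcripts of both alleles may be sequenced.

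The locus map shows how TRBV31 stands apart from the other V genes used. Of the 26 V genes with at least 1 clonotype, 25 lay upstream of TRBD1 on the plus strand, and TRBV31 alone lay on the minus strand. Its nearer end, on the side of the CDR3 bases, lay 9.339 kb beyond the end of TRBC2, 13.835 kb from TRBJ2-7, 15.515 kb from TRBD2 and 24.479 kb from TRBD1. The nearest V genes that join by deletion were farther away, TRBV30 at 251.211 kb and TRBV29 at 261.32 kb upstream of TRBD1, and TRBV1 was the farthest at 641.316 kb.

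**Figure D1:**
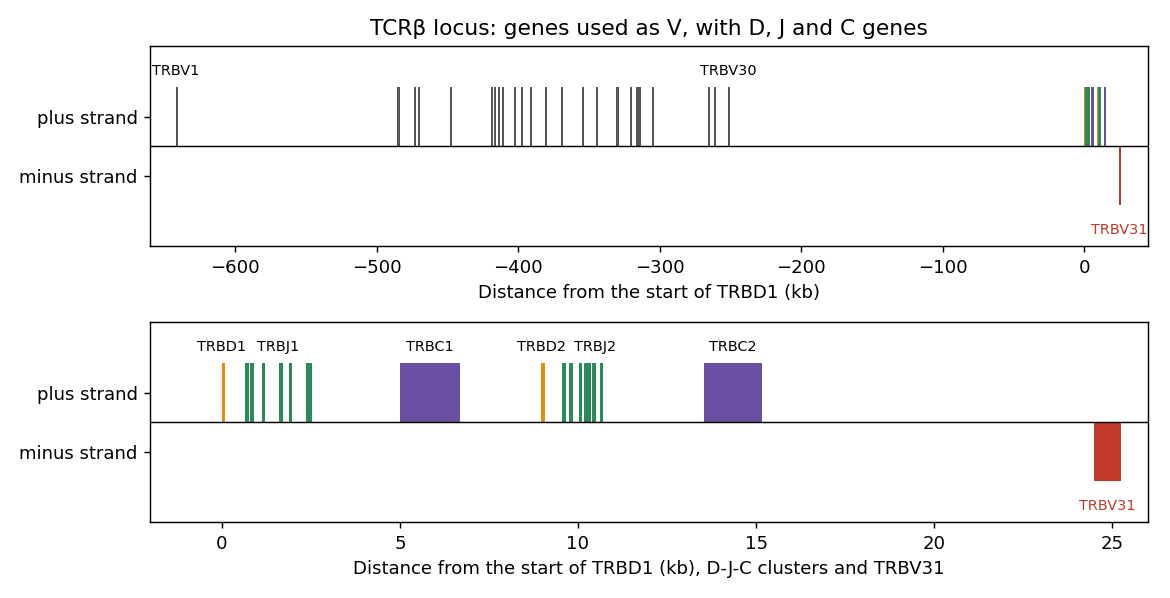
Position of the 26 V genes with clonotypes (grey; TRBV31 red), the D (orange), J (green) and constant genes (purple), in kb from the start of TRBD1, over the whole locus (top) and the D-J-C clusters (bottom). Boxes above the line are on the plus strand and boxes below it on the minus strand; TRBV31 is the only V gene below the line and the only one to the right of TRBD1.

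The germline end of the gene and the junctions of its leading clonotypes are given first, because the frame, trimming and insertion results below are read from them. The last 60 bases of Trbv31-202 (chr6:41557693-41557752, minus strand) are shown with the 14 that fall inside the CDR3 in capitals. In the clonotypes, capitals mark the bases between the aligned end of TRBV31 and the aligned start of the J gene. They hold what is left of the D gene and the inserted bases. The alignments ended the gene at 13 bases, so a capital T directly after these matches the last germline base and may belong to TRBV31. In the last one printed the V alignment ran past the germline end, as described below.
Germline end of TRBV31: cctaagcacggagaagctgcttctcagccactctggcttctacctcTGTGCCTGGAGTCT
Number 1 in thymus, TRBJ2-7, out of frame: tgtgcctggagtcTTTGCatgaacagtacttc
Number 2 in thymus, TRBJ1-2: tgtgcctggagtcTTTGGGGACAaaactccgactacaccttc
Number 3 in thymus, TRBJ2-4, out of frame: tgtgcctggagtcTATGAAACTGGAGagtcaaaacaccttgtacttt
Number 1 in spleen, TRBJ1-4: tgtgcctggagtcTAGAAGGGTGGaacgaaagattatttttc
Number 2 in spleen, TRBJ2-1: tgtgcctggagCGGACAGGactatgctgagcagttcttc
Number 3 in spleen, TRBJ1-2: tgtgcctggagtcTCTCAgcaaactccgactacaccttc
Largest out of frame in spleen, TRBJ1-1: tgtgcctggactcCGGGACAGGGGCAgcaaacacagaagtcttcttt
Found in both at like levels, TRBJ2-1: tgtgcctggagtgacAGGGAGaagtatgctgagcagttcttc

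TRBV31 was among the more used V genes by number of clonotypes and a minor one by reads. It took 5.12% of TRBV clonotypes in thymus (95% Wilson interval 4.16 to 6.30) and 7.05% in spleen (6.06 to 8.19), which ranked it eighth and sixth of the 26 V genes. Next above it stood TRBV13-1 in thymus with 86 clonotypes, and TRBV20 and TRBV5 in spleen with 165 each. Next below stood TRBV4 in thymus with 76 and TRBV1 in spleen with 123. The intervals of TRBV31 overlapped those of all of these neighbours. Of the V genes nearest upstream of the D genes, TRBV29 had 36 clonotypes in thymus and 68 in spleen and TRBV30 had 2 and 3, fewer than TRBV31.

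The share of TRBV31 clonotypes was lower in thymus than in spleen by 1.93 percentage points (Newcombe 95% interval, thymus minus spleen, -3.42 to -0.39). Of the 22 V genes with at least 10 clonotypes in each library, 4 had an interval that left out 0, and TRBV31 had the second largest difference after TRBV4, which differed the other way (4.63% in thymus and 2.54% in spleen). Whether these differences exceed those between mice could not be tested.

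By reads TRBV31 ranked lower, and no TRBV31 clonotype was among the very large ones. It held 24450 of 1782199 TRBV reads in thymus, or 1.37% (1.35 to 1.39), and 40615 of 2765086 in spleen, or 1.47% (1.45 to 1.48), which made it number 10 and number 8 by reads. TRBV31 clonotypes had from 1 to 7653 reads in thymus with a median of 97, and from 1 to 2023 in spleen with a median of 180.5. Other TRBV clonotypes had medians of 80 and 117 but reached 475490 and 1552980 reads. Their means, 1130 and 1308 reads per clonotype, were accordingly above those of TRBV31, 291 and 257. Of the other TRBV clonotypes, 12 in thymus and 8 in spleen had 10000 reads or more, and none of TRBV31 did. The TRBV31 share of reads was 1.87% in thymus and 3.35% in spleen once the largest TRBV clonotype of each library was left out.

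**Figure D2:**
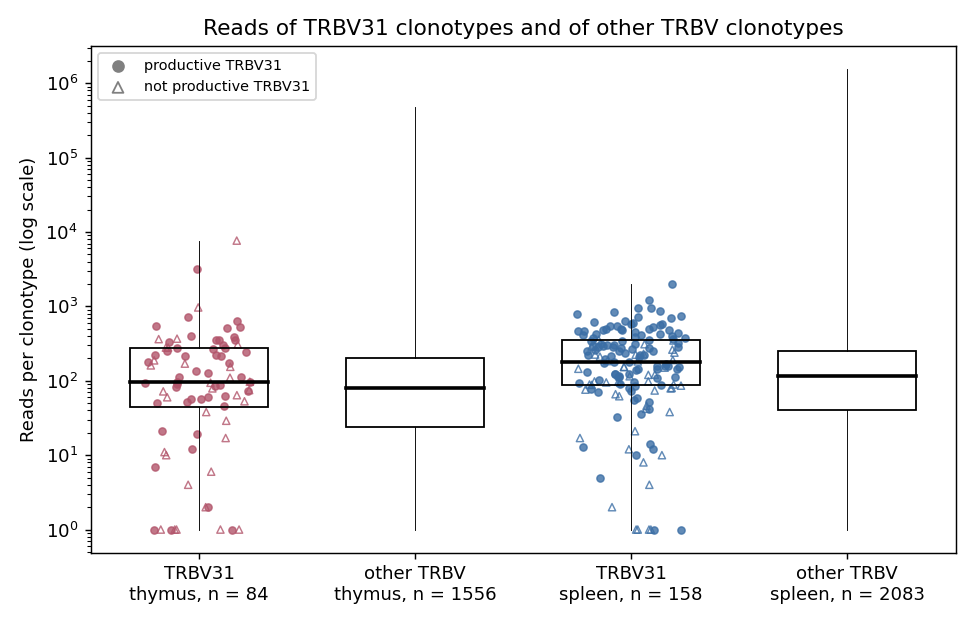
Reads per clonotype on a log scale for TRBV31 and all other TRBV genes in each library. Points are single TRBV31 clonotypes (filled, productive; open triangles, not productive), boxes run from the first to the third quartile with the median as a thick line, and thin lines reach the lowest and highest value; the TRBV31 medians are 97 in thymus and 180.5 in spleen, and the highest open triangle is the out-of-frame clonotype with 7653 reads.

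In the spleen TRBV31 clonotypes were more often above the median in reads than others. There, 99 of 158 (62.7%) had more reads than the library's median TRBV clonotype, against 1020 of 2083 (49.0%) of the others, a difference of 13.7 percentage points (5.64 to 21.2; two-sided Fisher's exact test over clonotypes, p = 0.000937, adjusted p = 0.0127). In thymus the shares were 57.1% and 49.2%, a difference of 7.98 points (-2.97 to 18.3) that did not pass (Fisher's exact test, adjusted p = 0.417). The adjustment ran over 338 tests, of each V gene against the rest on 8 measures in both libraries. Of these tests 43, or 12.7%, had an adjusted p under 0.05, and the spleen read measure was the only one of TRBV31's 16. On this measure 6 of 22 V genes were called in spleen (27.3%) and 3 of 22 in thymus (13.6%). The spleen call was lost when only clonotypes with at least 10 reads were kept (difference 11.2 points, Fisher's exact test, adjusted p = 0.0788).

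The spread of reads over TRBV31 clonotypes differed in the 2 libraries. In thymus the largest clonotype, joined to TRBJ2-7 and out of frame, held 31.3% of all TRBV31 reads with 7653, and the second, productive with TRBJ1-2, had 3153. The next 3 had 967 (TRBJ2-4, out of frame), 709 (TRBJ1-6) and 631 (TRBJ2-1). In spleen the 5 largest were close to each other, with 2023 (TRBJ1-4), 1232 (TRBJ2-1), 962 (TRBJ1-2), 956 (TRBJ2-1) and 859 reads (TRBJ1-1), and all were productive. The first of them held 4.98% of TRBV31 reads, the smallest such share among the 20 V genes with at least 20 clonotypes, for which the others ranged from 6.32% to 95.7%. The effective number, which is the count of equally sized clonotypes that would give the same Shannon entropy, was 22.6 of 84 in thymus (26.9%) and 103 of 158 in spleen (65.3%), ranking TRBV31 seventh and sixth for evenness among those 20 genes. Among the 100 largest TRBV clonotypes of each library, 2 in thymus and 7 in spleen were TRBV31, beside its 5.12% and 7.05% of all TRBV clonotypes.

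All 242 TRBV31 clonotypes were joined to a TRBJ gene, and by number of clonotypes the split between the TRBJ1 and TRBJ2 clusters was close to that of other V genes. The TRBJ genes lie in a pair of clusters, each behind its own D gene and followed by its own constant gene. TRBJ2 genes took 55 of 84 clonotypes in thymus (65.5%) against 64.7% of other TRBV clonotypes, and 99 of 158 in spleen (62.7%) against 61.4%. The differences were 0.82 (-10.1 to 10.4) and 1.21 points (-6.82 to 8.67), with adjusted p of 1 and 0.955, and in size they came last of 22 V genes in thymus and number 20 in spleen. On this measure 3 of 22 V genes were called in each library (13.6% in thymus and 13.6% in spleen), TRBV20 and TRBV26 toward TRBJ1 and TRBV4 toward TRBJ2 in both. The sign was not settled, since it turned among productive clonotypes, where TRBV31 had 56.9% TRBJ2 in thymus and 58.7% in spleen against 64.8% and 60.2%. It turned by reads as well, where TRBJ2 held 66.7% of TRBV31 reads in thymus against 71.1% and 58.9% in spleen against 84.6%. A single TRBV13-3 clonotype of 1552980 reads made up most of the 2305120 TRBJ2 reads of the others in spleen. The size of the spleen gap by reads therefore rests largely on that clonotype. Every TRBV31 clonotype was listed with TRBC2, but TRBC1 was listed for no TRBV clonotype at all, so the constant gene did not tell the clusters apart.

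Within the clusters the order of TRBV31's partners was not the same in the libraries. In thymus the most used were TRBJ1-2 with 19 clonotypes (22.6%), TRBJ2-1 with 18 (21.4%), TRBJ2-5 with 11 and TRBJ2-3 with 9. TRBJ2-2 had 7, TRBJ2-7 6, TRBJ1-1 and TRBJ2-4 4 each, TRBJ1-3 3, and TRBJ1-4, TRBJ1-5 and TRBJ1-6 1 each. In spleen the most used were TRBJ2-3 with 27 (17.1%), TRBJ2-7 with 23 (14.6%) and TRBJ1-2 with 22 (13.9%), followed by TRBJ1-1, TRBJ2-1 and TRBJ2-5 with 17 each. TRBJ2-4 had 12, TRBJ1-4 7, TRBJ1-3 6, TRBJ1-5 5, TRBJ2-2 3 and TRBJ1-6 2. Against other TRBV clonotypes of the same library, the Newcombe interval left out 0 for 3 of 24 comparisons, all in thymus and not adjusted for their number. These were TRBJ2-1 (21.4% against 12.7%, interval of the difference 1.08 to 18.7 points), TRBJ2-2 (8.33% against 3.66%, 0.30 to 12.6) and TRBJ2-7 (7.14% against 15.5%, -12.6 to -0.58). The same partners in spleen were at 10.8% against 10.6%, 1.90% against 2.69% and 14.6% against 15.0%.

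**Figure D3:**
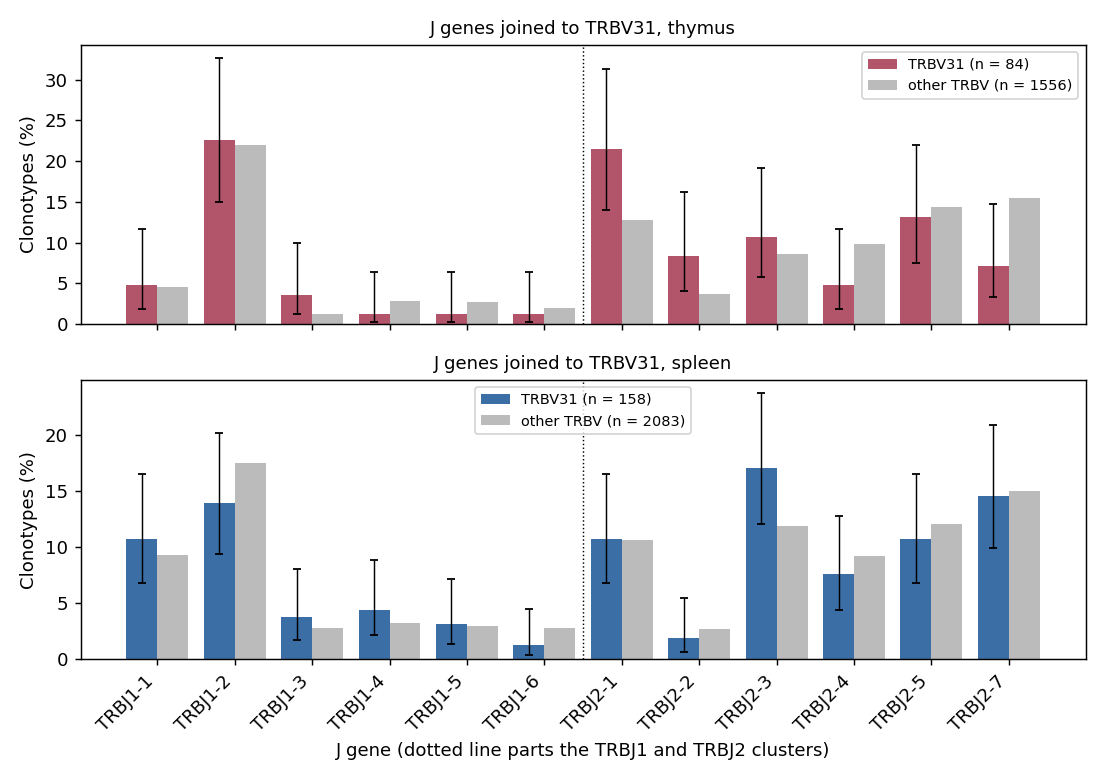
Share of clonotypes joined to each of the 12 TRBJ genes, in percent, for TRBV31 (coloured, with 95% Wilson intervals) and all other TRBV genes of the same library (grey). TRBJ2-1 stands at 21.4% for TRBV31 and 12.7% for the others in thymus, and at 10.8% and 10.6% in spleen.

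The V genes most like TRBV31 in J use were TRBV15, TRBV19 and TRBV16. The measure was the total variation distance of the 12 J shares, which is 0 for identical and 1 for wholly separate use, averaged over the 2 libraries, among 18 V genes. It was 0.156, 0.161 and 0.173 for these genes, 0.302 for TRBV29 (rank 15) and 0.381 for the least alike, TRBV26. The distance of TRBV31 from itself between thymus and spleen was 0.281, larger than its distance from any of the 3 genes. Small numbers of clonotypes raise such distances, and they are given with no test.

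TRBV31 joined to either D gene, and the pairing of D with J followed the order of the locus. A D gene could be assigned in 57 of 84 thymus clonotypes (67.9%, others 66.7%) and 117 of 158 spleen clonotypes (74.1%, others 67.3%). The differences of 1.15 (-9.68 to 10.5) and 6.74 points (-0.87 to 13.3) did not pass Fisher's exact test (adjusted p = 1 and 0.277), where 9.09% of V genes were called in thymus and 13.6% in spleen. TRBD1 can reach either J cluster, whereas TRBD2 lies beyond TRBJ1. No TRBV31 clonotype with a TRBJ1 gene was listed with TRBD2, 0 of 29 in thymus and 0 of 59 in spleen, where 0 of the 88 together allows a share of up to 3.41%. Among other TRBV clonotypes with TRBJ1, 44 of 1353 (3.25%) were listed with TRBD2, so the difference was not detectable at this number of clonotypes. Both shares count clonotypes with no D gene, which were 16 of the 29 and 19 of the 59 for TRBV31. For the others they were 282 of 550 in thymus and 339 of 803 in spleen. Over clonotypes with a D gene the limit for TRBV31 is wider. With a TRBJ2 gene, TRBD2 was listed for 35 of 44 TRBV31 clonotypes with a D gene in thymus (79.5%, others 75.6%) and for 52 of 77 in spleen (67.5%, others 63.5%). These differences of 3.96 (-10.4 to 13.8) and 3.99 points (-7.49 to 13.9) did not pass Fisher's exact test either (adjusted p = 0.906 and 0.784), and 0% and 5.26% of V genes were called. D genes are short and alike, and for 15 of the 174 TRBV31 clonotypes with a D gene both scored equally.

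Fewer TRBV31 clonotypes than others were productive, that is, in frame and without a stop codon, in both libraries, but neither difference passed the adjusted threshold. In thymus 51 of 84 were productive (60.7%) against 73.4% of other TRBV clonotypes, lower by 12.7 points (-23.6 to -2.67; Fisher's exact test, p = 0.0162, adjusted p = 0.0883). In spleen 109 of 158 were (69.0%) against 76.7%, a difference of -7.68 points (-15.5 to -0.74; Fisher's exact test, p = 0.0331, adjusted p = 0.153). The background on this measure was high, with 4 of 22 V genes called in thymus (18.2%) and 6 of 22 in spleen (27.3%). The calls went both ways. TRBV13-2 in both libraries and TRBV2 in spleen were higher, and the other called genes were lower. The lower ones included TRBV24, which is annotated as a pseudogene, in both libraries. Nearly all unproductive TRBV31 clonotypes were out of frame. In thymus 13 were 1 base and 20 were 2 bases beyond a whole number of codons, and in spleen 15 and 33 were. An in-frame stop codon was found in 0 of 51 in-frame clonotypes in thymus, which allows a share of up to 5.88%, and in 1 of 110 in spleen. Among other TRBV clonotypes the 2 shifted frames were near equal, with 204 and 188 in thymus and 237 and 228 in spleen.

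The productive share stood lower in joints to TRBJ2. Of TRBV31 clonotypes with a TRBJ2 gene, 29 of 55 were productive in thymus (52.7%, 39.8 to 65.3) and 64 of 99 in spleen (64.6%, 54.8 to 73.4), against 73.6% and 75.1% of others. With a TRBJ1 gene they were 22 of 29 (75.9%) and 45 of 59 (76.3%), against 73.1% and 79.2%. Single partners varied widely, from 11 of 27 with TRBJ2-3 in spleen to 20 of 22 with TRBJ1-2 and 16 of 17 with TRBJ2-1 in the same library. These splits were made after the values were seen and carry no test.

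By reads the productive share of TRBV31 was 52.1% in thymus against 92.1% for other V genes, a wider gap than by clonotypes, and 86.0% in spleen against 93.0%, a difference of -7.04 points. Clonotypes that were not productive held 11716 of 24450 TRBV31 reads in thymus (47.9%) and 5683 of 40615 in spleen, against 7.88% and 6.96% of other TRBV reads. In thymus most of this was the single TRBJ2-7 clonotype of 7653 reads, and without it TRBV31 fell to 0.947% of TRBV reads. The median unproductive TRBV31 clonotype had 72 reads in thymus and 94 in spleen, below the productive medians of 127 and 259. For other TRBV clonotypes the unproductive medians were 40 and 39 and the productive ones 109 and 154. The largest unproductive TRBV31 clonotype in spleen, joined to TRBJ1-1, had 356 reads and ranked fortieth of 158.

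Most TRBV31 clonotypes kept nearly the whole germline V end. In the reference used for the alignments the germline gene ended 13 bases into the CDR3 and was followed by a 20-base palindrome of its own end, into which 44 of the 242 alignments ran. The 13 bases stood against 14 in the annotated transcript Trbv31-202, which has 1 more T. Trbv31-201 runs 2 bases further, and among the other V genes that could be compared TRBV3 alone had an annotated end, 4 bases longer, that differed from the aligned one. Of the 157 TRBV31 clonotypes whose alignment reached base 13 or beyond, with or without mismatches, 96 (61.1%) had this T next. Of the 134 that kept all 13 bases unchanged, 92 (68.7%) had it, so that 92 of 242 (38.0%, 32.1 to 44.3) held all 14 bases unchanged from the start of the CDR3, 29 of 84 in thymus and 63 of 158 in spleen. The T can also arise by insertion, and a T was the commonest next base at the ends of TRBV1, TRBV16, TRBV17, TRBV2, TRBV20 and TRBV5 as well, at 35.6% to 53.1% of their clonotypes. A further 42 clonotypes matched exactly 13 bases, 18 matched 12 and 50 matched 11. In all but 1 clonotype, from the spleen, the match was at least 5 bases long.

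**Figure D4:**
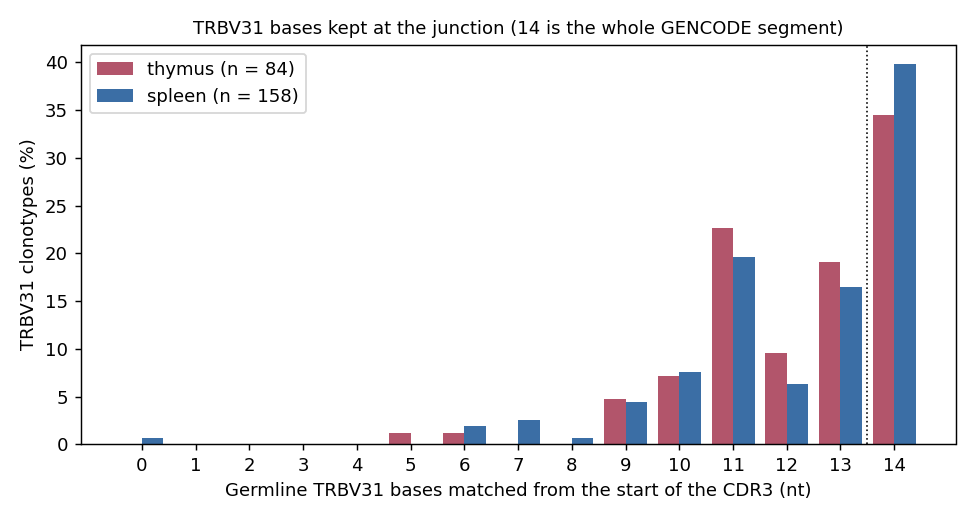
Number of bases matching the germline end of TRBV31 without a break from the start of the CDR3, as percent of TRBV31 clonotypes of each library. The dotted line parts 13 bases, the end used in the alignments, from 14, the end of the annotated transcript; 34.5% of thymus and 39.9% of spleen clonotypes match all 14.

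The share of TRBV31 joints without insertions depended on which end was used and on whether unproductive clonotypes were counted. As aligned, 5 of 57 thymus clonotypes with a D gene had no inserted base (8.77%, others 17.4%), and 19 of 117 in spleen had none (16.2%, others 24.9%). The differences were -8.67 (-14.2 to 1.74; adjusted p = 0.298) and -8.65 points (-14.7 to -0.61; Fisher's exact test, p = 0.0425, adjusted p = 0.175), where 9.52% of V genes were called in thymus and 10% in spleen. With the 14-base end, 6 of 57 (10.5%) and 27 of 117 (23.1%) had no insertion, and the spleen difference was -1.82 points (Fisher's exact test, adjusted p = 0.923). Among productive clonotypes as aligned, the differences were wider. They were -10.1 points in thymus (9.38% against 19.5%) and -13.9 in spleen (12.7% against 26.6%). Neither passed Fisher's exact test (adjusted p = 0.619 and 0.0758). Productive clonotypes were not compared with the 14-base end. TRBV31 clonotypes held a median of 4 inserted bases in thymus and 2 in spleen as aligned, and 3 and 2 with the longer end. Means were 4.53 ± 5.44 (SD over 57 clonotypes) and 2.87 ± 2.44 (117 clonotypes) as aligned. As aligned, the joint of V with D held 2.58 inserted bases on average in thymus and 1.91 in spleen. The joint of D with J held fewer, 1.95 and 0.957. With the longer end the means at V with D were 2.28 and 1.58. Other V genes had the same order, with 3.34 and 3.17 at V with D and 2.19 and 1.81 at D with J. Means of the other V genes, 5.53 and 4.98, included joints with up to 231 and 228 inserted bases, and their median was 2 in both libraries.

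Productive CDR3s with TRBV31 did not differ in length from others past the adjusted threshold. They averaged 41.5 ± 6.61 nucleotides in thymus (SD over 51 clonotypes, range 30 to 60) and 40.8 ± 4.46 in spleen (109 clonotypes, 27 to 51), against 42.4 and 41.9. The commonest length was 39 nucleotides in thymus (15 clonotypes) and 42 in spleen (33 clonotypes). The share longer than the library median of 42 nucleotides was 31.4% against 40.2% in thymus (difference -8.82 points, -20.2 to 5.12; adjusted p = 0.513) and 24.8% against 34.7% in spleen (-9.92 points, -17.5 to -0.76; Fisher's exact test, p = 0.0366, adjusted p = 0.161). On this measure 21.1% and 15% of V genes were called. Alignments to TRBV31 covered 13.1 bases on average in each library, against 14.3 and 14.4 for other V genes, bases aligned to the palindrome included. J genes contributed 19.3 bases in thymus and 18.8 in spleen, against 18.4 and 18.8.

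The germline bases set the first residues of the TRBV31 CDR3. The third residue, encoded by TGG in the germline end printed above, was tryptophan in 49 of 51 productive clonotypes in thymus and 105 of 109 in spleen. It was tryptophan in 0 of 1142 and 0 of 1597 productive clonotypes of other V genes, which allows shares of up to 0.263% and 0.188%. The fourth was serine in 74.5% and 78.9%, much as in others (72.2% and 70.7%). At the fifth position, which starts with the last germline bases CT, leucine stood in 39.2% of thymus (27.0 to 52.9) and 45.9% of spleen clonotypes (36.8 to 55.2), against 15.6% and 15.8% of others. These residues follow from the V sequence that defines the clonotypes and are given as a description.

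Few TRBV31 clonotypes were found in both tissues. The 16 shared ones were 19.0% of those in thymus and 10.1% of those in spleen, against 24.0% and 17.9% for other TRBV clonotypes. The differences were -4.92 (-12.2 to 4.97; adjusted p = 0.639) and -7.78 points (-11.9 to -1.87; Fisher's exact test, p = 0.0119, adjusted p = 0.0745), with 0% of V genes called in thymus and 4.55% in spleen. The spleen difference was the most negative among the 22 V genes. It passed when clonotypes of 1 read were left out (-8.51 points, Fisher's exact test, adjusted p = 0.0342) and when the TRBJ2-7 clonotype of 7653 thymus reads was left out (-8.35 points, adjusted p = 0.0468). At the level of reads, 10 of the 16 had at least 10 reads in both libraries, as did 269 of the 373 shared clonotypes of other V genes. The 16 held 57.6% of TRBV31 reads in thymus and 14.4% in spleen.

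Their levels in the tissues ranged from near equal to far apart. Reads in the tissues were within 2-fold of each other for 6 of the 16 and over 10-fold apart for 7. These counts are not scaled for depth, and the spleen library had more TRBV reads (2765086 against 1782199). By share of TRBV reads, 7 of the 16 were within 2-fold. The out-of-frame TRBJ2-7 clonotype had 7653 reads in thymus and 4 in spleen. The TRBJ1-2 clonotype second in thymus had 3153 there and 222 in spleen. The TRBJ2-1 clonotype second in spleen had 1232 there and 217 in thymus. A TRBJ1-1 clonotype had 348 in thymus and 800 in spleen, or 0.0195% and 0.0289% of TRBV reads. Those within 2-fold in reads had 533 in thymus and 640 in spleen (TRBJ2-1, the last junction printed above), 368 and 348 (TRBJ2-7), 243 and 254 (TRBJ1-2), 219 and 252 (TRBJ2-7), 180 and 210 (TRBJ1-1), and 170 and 262 (TRBJ2-5). The fourth largest in spleen, with 956 reads, had 1 read in thymus. Of the 16 shared clonotypes 11 were productive (68.8%), beside 40 of the 68 found in thymus alone (58.8%) and 98 of the 142 found in spleen alone (69.0%).

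For most TRBV31 measures the interval of the difference between the libraries included 0. The productive share, thymus minus spleen, differed by -8.27 points for TRBV31 (-20.9 to 4.09) and by -3.27 for other TRBV clonotypes (-6.14 to -0.44). As aligned, the share without insertions differed by -7.47 points (-16.7 to 4.14), next to -7.46 for the other V genes (-10.7 to -4.18). This likeness depended on the V end used. With the 14-base end the TRBV31 shares were 10.5% in thymus and 23.1% in spleen, against 17.4% and 24.9% for the others. The share of TRBD2 with TRBJ2, thymus minus spleen, had an interval of -4.89 to 26.5 points for TRBV31 and of 7.68 to 16.3 for the others. The difference of TRBV31 from the other V genes in these contrasts was not tested.

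**Figure D5:**
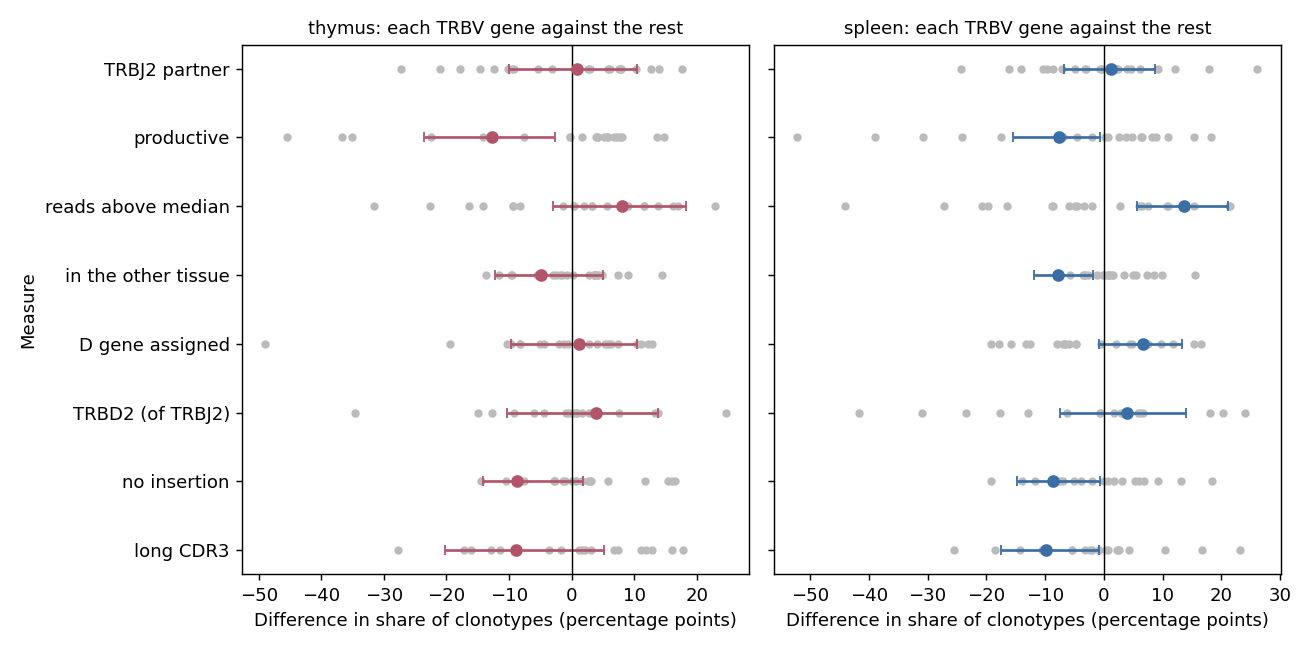
Difference in the share of clonotypes, in percentage points, between each V gene and all other TRBV clonotypes of the same library for the 8 measures tested. Coloured points with 95% Newcombe intervals are TRBV31 and grey points the other V genes; TRBV31 lies within the range of the other genes on all 8 measures in thymus and on all but presence in the other tissue in spleen, where it is lowest, and its difference in reads above the median in spleen is 13.7 points.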

How the data were processed

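The authors amplified TCRα and TCRβ transcripts of each sorted sample with the SMARTer Mouse TCRαβ Profiling Kit, sequenced them on a MiSeq and assembled clonotypes with MiXCR against its own gene library. The deposited tables hold read counts per clonotype, not normalized, and each count as a fraction of the library total, TCRα and TCRβ combined. Molecular identifiers and filters are not given in the sources used here, so reads are not independent molecules and the number of clonotypes depends on how errors were merged. Depth was 2700370 reads in thymus and 4585403 in spleen, of which 1782199 and 2765086 were TRBV.

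Clonotypes were grouped by their first-listed V gene, and none of the 242 TRBV31 clonotypes had a tied V gene (16 others had). Each was counted once, with no read minimum. V genes with at least 10 clonotypes of the kind tested were each compared with all other TRBV clonotypes of the same library by two-sided Fisher's exact tests (scipy 1.17.1), with Benjamini-Hochberg adjustment over all 338 tests. These tests compare the clonotypes of 1 library, not tissues. Wilson and Newcombe 95% intervals were used for shares and differences, and the upper limit of a count of 0 was set at 3 counts. Inserted bases were those left outside the V, D and J alignments in clonotypes with a D gene, so bases aligned to the palindrome after the V end in MiXCR's reference counted as V bases. Gene positions and the TRBV31 end came from GENCODE vM21 on GRCm38; MiXCR gave no coordinates. Clonotypes named were the 5 with most reads and the largest out-of-frame one in each library, and the 5 leading shared ones. V genes named were TRBV29, TRBV30, those next in rank and the 3 most alike in J use. The members and these rules were chosen with earlier results of these data known. Alternatives covered read minimums of 2 and 10, merging of 1-nucleotide neighbours, tied V genes, equal reads, productive clonotypes, weighting by reads and leaving out large or shared clonotypes.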

Additional observations from a re-analysis of the deposited data

How the results depend on the processing

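No paired analysis was possible because each tissue had 1 library. Of 198 alternative values over 14 settings, 179 kept their direction and their side of the threshold or stayed within their interval. The cause of the other changes was not tested. The difference in TRBJ2 share turned negative in thymus with at least 2 reads (-1.56 points) or 10 reads (-0.78), without TRBV13-3 and TRBV19 (-0.20), without clonotypes of both libraries (-2.92), among productive clonotypes (-7.94) and by reads (-4.41), and in spleen without clonotypes of both libraries (-0.84), among productive clonotypes (-1.46) and by reads (-25.7). The size of the spleen value by reads rests largely on 1 TRBV13-3 clonotype of 1552980 reads. The thymus difference in D assignment turned to -1.54 (at least 2 reads), -3.33 (at least 10) and -2.09 (without clonotypes of both libraries). The spleen read difference fell short at 11.2 points with at least 10 reads. The spleen difference in sharing passed at -8.51 with at least 2 reads and at -8.35 without the largest out-of-frame clonotype, a setting chosen after seeing the data, as was the 14-base TRBV31 end. The clonotype left out is itself shared, so this setting could only lower the share. The difference in sharing fell short at -8.06 with at least 10 reads, -7.96 with 1-nucleotide neighbours merged and -8.19 at equal reads. By reads the thymus productive difference was -40.0 points. The TRBV31 share of reads moved to 1.87% in thymus and 3.35% in spleen without the largest TRBV clonotype, and to 0.947% in thymus without the largest out-of-frame one. Calls over all V genes numbered 43, and 27 with at least 10 reads. Merging 1-nucleotide neighbours removed 13 clonotypes in thymus and 21 in spleen, 0 of them TRBV31.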
